A study of Mus musculus with 28 samples.

Results

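Liver gene expression was compared between 7 male and 7 female mice that overexpressed the NAD-dependent deacylase SIRT6 (SIRT6-tg), 14 of the 28 liver libraries in the series. The other 14 libraries came from 7 male and 7 female wild-type (WT) mice and served as the reference for the sex difference without the transgene. All mice were C57BL/6JOlaHsd, aged 5 to 7 months, kept on standard chow and fasted briefly before the livers were collected. The transgene was expressed in the whole body, and all SIRT6-tg mice came from 1 transgenic line that had been backcrossed to this strain, with WT littermates as controls. The promoter that drives the transgene is not given in the sources used here. The labels number the libraries within a group and do not say more about the animals, so p-values measure the spread between these libraries. The members are the 20784 autosomal genes with a mean normalized count of 0.5 or more, of 21583 expressed genes and 49585 features in the table. The genes nearest to this limit were Gm13412 (0.500136) and Arhgap33os (0.50008) inside it and Trbv20 (0.499898) and Ifnk (0.499858) outside it. Genes of the sex chromosomes and the mitochondrial genome were left out, and 0 of the 28 libraries had sex-chromosome transcripts that disagreed with the labelled sex.

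The liver of rodents is one of the most sexually dimorphic organs outside the gonads. Growth hormone is released in separated pulses in males and almost continuously in females, and the hepatocyte reads this pattern through the growth hormone receptor, JAK2 and the transcription factor STAT5. Male-type pulses maintain genes for urinary pheromone carriers and several cytochromes P450, whereas the near-continuous female pattern maintains other P450s, sulfotransferases and the repressor CUX2, which lowers male-biased genes. The factor BCL6 competes with STAT5 at many sites, and ONECUT1 and CUX2 can bind the same short element.

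The targeted gene, Sirt6 (chromosome 10, 81621785 to 81627797, minus strand, GRCm38), checked the labels. In male SIRT6-tg mice its normalized count ranged from 5263 to 9516 (median 7189), and in female SIRT6-tg mice from 434 to 1335 (median 785). WT mice had 72.6 ± 13.6 (SD, n = 7) in males and 76.5 ± 41.1 (SD, n = 7) in females. Both transgenic groups lay above all WT libraries, and the 2 transgenic sexes did not overlap. The male excess was 3.22 on the log2 scale (SE 0.25, adjusted p = 8.96e-11, edgeR quasi-likelihood test with Benjamini-Hochberg adjustment over all expressed genes, used for every adjusted p below). Reads from the transgene and the native gene could not be told apart in this count. The transgene level was therefore confounded with sex in these mice, as were the library numbers, 17 to 24 in males and 49 to 56 in females. The log2 Sirt6 level of each of the 14 SIRT6-tg libraries was added as a covariate, and it correlated with sex at 0.968. With it, 69 autosomal genes were called for sex, in place of 4627 without it in the same libraries. For the Sirt6 level, 1315 were called. With terms this close, much of such a fall is fixed in advance, so these counts do not divide the calls between sex and Sirt6. Every sex difference described for SIRT6-tg mice is thus a difference between males with a high and females with a lower transgene level, and these cannot be told apart. The 69 genes called with the covariate, 41 higher in males and 28 in females, included well-known dimorphic genes. They also held others, such as the immunoglobulin gene Igkv3-10 (log2 -13.44) and Usp34 (2.72). A call in this fit does not set sex apart from the Sirt6 level. The dimorphic genes among the 69 included the female-biased P450 gene Cyp2b13 (log2 -12.53, SE 0.84, adjusted p = 2.33e-06), the oxidase gene Hao2 (-9.62), the male-biased Hsd3b5 (7.93) and the repressor gene Cux2 (-5.45, SE 0.84, adjusted p = 0.00884), all from the edgeR fit of the 14 SIRT6-tg libraries.

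**Figure D1:**
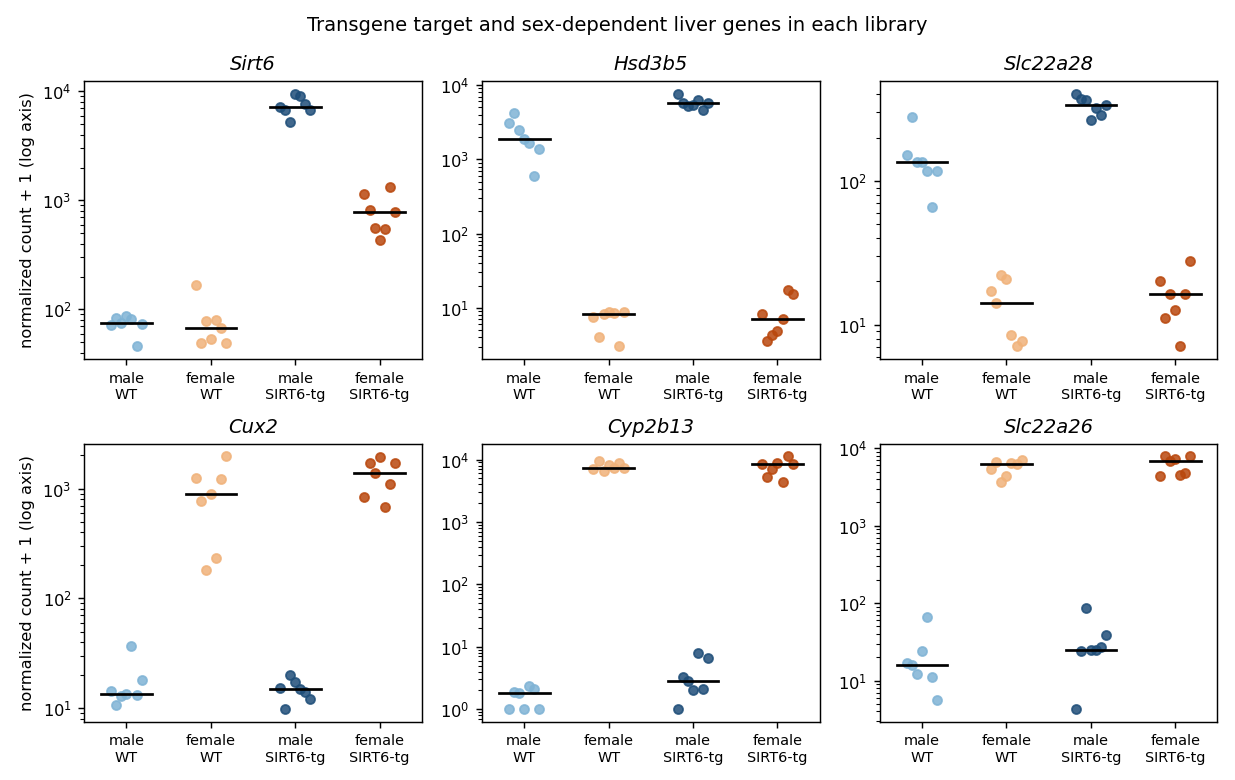
Normalized count plus 1 (log axis) of 6 genes in each of the 28 libraries, by sex and genotype; points are libraries and bars group medians. Sirt6 separates both SIRT6-tg groups from each other and from the WT libraries, while the other 5 genes separate males from females in SIRT6-tg.

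Libraries held 22893868 to 31198683 counts in the SIRT6-tg groups and 18758863 to 35393069 in the WT groups. The trimmed-mean scaling factor was 0.821 to 0.993 in male SIRT6-tg, 0.906 to 1.06 in female SIRT6-tg and 1.06 to 1.17 in male WT libraries. Mitochondrial transcripts took 4.49% to 5.79% of counts in male SIRT6-tg and 5.55% to 6.58% in female SIRT6-tg livers. The defining hepatocyte genes summed to between 3589570 and 5373532 normalized counts in the 14 SIRT6-tg libraries, against at most 1597 for pancreas genes and 459 for adipocyte genes. In WT livers the hepatocyte genes summed to 2901379 to 3897245 in males and 4367337 to 5542409 in females, without overlap. Of the 12 hepatocyte genes, 3 were higher in WT females and 0 in WT males. The sex difference of 2 was called more toward males in SIRT6-tg than in WT. On the first 2 principal components, SIRT6-tg male 7 and females 1 and 6 stood apart from their groups. Those 2 females also had the highest Sirt6 counts of their sex, 1141 and 1335.

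To show sequence around genes with the clearest differences, the region before the transcription start was read from RefSeq promoters (GRCm38.p6), with 9 of the 10 named male-biased and 9 of the 10 named female-biased genes matched. Of 32851 promoters, 7.02% held TTCNNNGAA, a letter pattern of STAT sites that reads the same on both strands, and 6.72% held ATCAAT on either strand, a core of ONECUT1 and CUX2 sites, within the 250 bases before the start. Counted per gene, 8.13% and 7.72% of 27025 genes held them. Of the 18 matched named genes, 1 held the first pattern and 1 the second, and both were in the promoter of Slc22a26. The promoters of 3 transporter genes of the Slc22a family on chromosome 19 are printed, because Slc22a26 and Slc22a27 were female-biased while their paralog Slc22a28 was male-biased. Capitals mark TTCNNNGAA, which begins 141 bases before the start of Slc22a26.
Slc22a26, chr19:7802668-7802917, minus strand: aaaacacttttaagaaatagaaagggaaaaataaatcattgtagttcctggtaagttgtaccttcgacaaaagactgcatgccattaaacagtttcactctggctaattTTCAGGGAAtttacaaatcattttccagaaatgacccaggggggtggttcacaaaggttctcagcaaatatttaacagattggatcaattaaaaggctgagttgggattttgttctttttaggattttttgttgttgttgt
Slc22a27, chr19:7966028-7966277, minus strand: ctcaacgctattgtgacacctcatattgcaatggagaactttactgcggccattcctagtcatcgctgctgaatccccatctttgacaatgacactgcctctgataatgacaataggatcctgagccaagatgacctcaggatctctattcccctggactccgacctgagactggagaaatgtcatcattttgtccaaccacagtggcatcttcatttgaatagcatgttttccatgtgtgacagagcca
Slc22a28, chr19:8131983-8132232, minus strand: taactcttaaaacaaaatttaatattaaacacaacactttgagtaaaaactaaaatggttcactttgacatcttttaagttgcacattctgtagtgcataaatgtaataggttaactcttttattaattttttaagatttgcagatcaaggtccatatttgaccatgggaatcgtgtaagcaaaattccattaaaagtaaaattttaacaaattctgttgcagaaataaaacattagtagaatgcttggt
A match is a letter pattern only, and its absence from these 250 bases says nothing about the factor.

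Across the autosomes, 4807 of 20784 genes (23.1%) differed between male and female SIRT6-tg livers at an adjusted p below 0.05. Of these, 2727 (13.1% of those tested) were higher in males and 2080 (10%) in females, and 1199 differed at least 2-fold, 514 toward males and 685 toward females. The count at an unadjusted p below 0.05 was 7381. All 7 libraries of one sex lay outside the range of the other for 750 male-higher (3.61%) and 517 female-higher genes (2.49%). Protein-coding genes made up 2473 of the male-higher and 1755 of the female-higher genes. The share of each direction depended on the scaling. Male-higher genes were 56.7% of the calls here, 51.5% with median-of-ratios factors, 39.9% with upper-quartile factors and 39.7% with library size alone. Under all 4 scalings 1745 genes were male-higher and 2080 female-higher, and 0 genes were called in opposite directions. The median log2 difference over all genes was -0.03, and -0.14 with library size alone.

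The 10 male-biased genes named here had the smallest adjusted p of all genes without overlap between the sexes, and 2 of them encode N-acetyltransferases of the NAT8 family. Nat8 (chromosome 6, 85830388 to 85832082) had 580 to 982 normalized counts in males (median 823) and 5.93 to 24.7 in females (median 10.2), a log2 difference of 6.13 (SE 0.25, adjusted p = 8.65e-18). Nat8f5 was at 139 to 420 in males and 0 to 4.11 in females. The widest separation among the 10 was in Hsd3b5, a hydroxysteroid dehydrogenase known for its male-specific hepatic expression. Its counts were 4588 to 7644 in males (median 5692) and 2.54 to 16.6 in females (median 6.07), a log2 difference of 9.59 (SE 0.42, adjusted p = 2.74e-16).

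Slc22a28, whose promoter is printed above, had 266 to 404 counts in males and 6.07 to 26.7 in females, 4.49 apart on the log2 scale (SE 0.29, adjusted p = 1.14e-12). The glutathione S-transferase gene Gstp1 (16159 to 45090 in males, 1903 to 4811 in females) and the terminal complement gene C6 (4930 to 7148 and 343 to 899) followed. Reads of Gstp1 may be shared with its near-identical copies. Nudt7, a peroxisomal coenzyme A diphosphatase, ranged from 19926 to 26273 in males and from 2924 to 5095 in females. The remaining 3 were Ttc39c (log2 2.40), Abcg2, an efflux transporter (1.31), and the fibrillar collagen gene Col27a1 (2.21). For all 10 genes the lowest male value lay above the highest female value, which was part of the rule that chose them.

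Among the 10 genes chosen in the same way for higher levels in females, Cyp2b13, a female-specific P450, was the most separated. It had 4307 to 11281 counts in females (median 8384) and 0 to 6.97 in males (median 1.84), a log2 difference of -11.45 (SE 0.32, adjusted p = 3.95e-22). Hao2, a peroxisomal hydroxyacid oxidase, had 821 to 2424 counts in females and 1.09 to 10.1 in males. Slc22a26 was at 4442 to 7852 in females and 3.28 to 85.4 in males (log2 -7.58, SE 0.45, adjusted p = 1.14e-12). Slc22a27, its paralog, was at 872 to 1502 and 2.06 to 39.4, respectively. Both were thus opposite in direction to Slc22a28.

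The P450s Cyp2a22 (log2 -5.85) and Cyp2c39 (-3.27), were in the female-biased set. So were Nt5e, the ecto-enzyme that makes adenosine from AMP (1394 to 2623 counts in females, 140 to 263 in males), Aldh3b3 (84.0 to 211 and 0 to 7.04), Evc2, a ciliary component of hedgehog signalling (91.4 to 150 and 15.5 to 26.3), and Fam84b (534 to 1367 and 108 to 189).

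**Figure D2:**
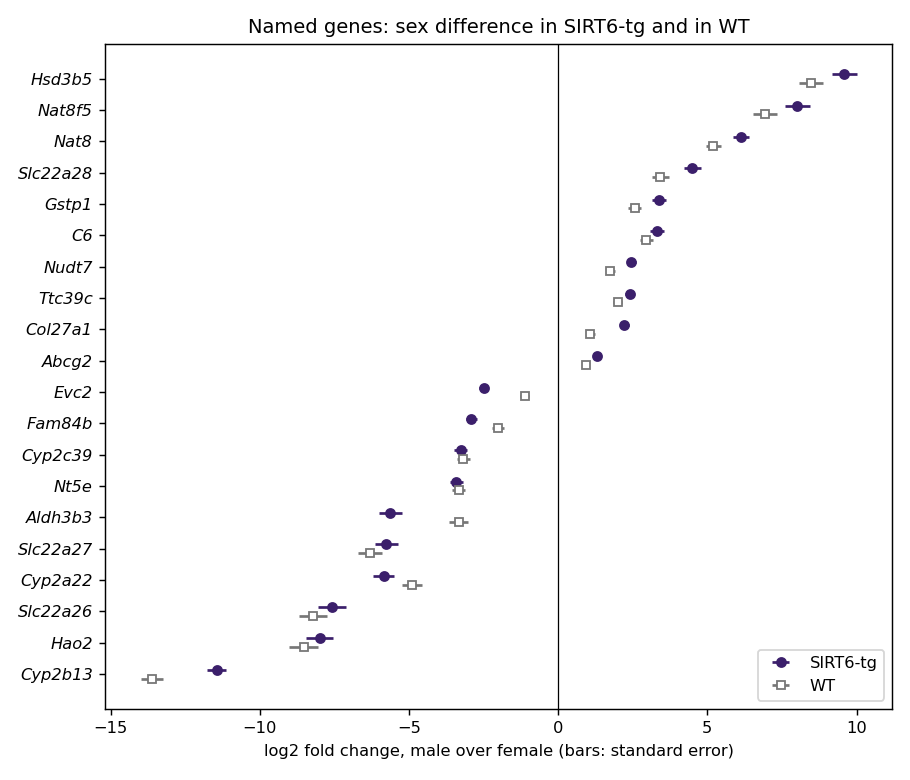
Log2 fold change of males over females, with its standard error, for the 10 male-biased and 10 female-biased genes named by the rule, in SIRT6-tg (filled circles) and WT (open squares). Every gene lies on the same side of 0 in both genotypes, from Hsd3b5 at 9.59 to Cyp2b13 at -11.45 in SIRT6-tg.

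Among 16 genes of growth hormone signalling, 2 were higher in males and 4 in females, 37.5% called against 23.1% of all autosomal genes. The list's median log2 difference was -0.24 against -0.03 over all genes. Over all autosomal genes 13.1% were higher in males and 10% in females, the shares to set beside each list and family count below. The growth hormone receptor gene Ghr had 14276 to 20434 counts in males and 11394 to 15330 in females (log2 0.41, SE 0.11, adjusted p = 0.00541), with overlapping ranges. Egfr, a growth factor receptor gene known for higher expression in male liver, was at 8862 to 18199 in males and 2747 to 12991 in females (log2 1.10). On the female side were the prolactin receptor Prlr, with 9424 to 16177 counts against 2132 to 3946, and the leptin receptor Lepr, with 454 to 2928 against 72.1 to 228. The STAT5-induced feedback inhibitor Socs2 was also higher in females (log2 -1.31, SE 0.31, adjusted p = 0.00302), as was Stat5a (log2 -0.50, adjusted p = 0.00825). Igf1, the main endocrine output of growth hormone in liver, was at 16481 to 21523 in males and 17874 to 23268 in females (log2 -0.06, adjusted p = 0.656), and the ranges overlapped, with the highest library a female and the lowest a male. Stat5b, the form most tied to male-type signalling, differed by -0.19 on the log2 scale and was not called.

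Of 20 transcription factors of hepatic sex bias and hepatocyte identity, 4 were higher in males and 6 in females. Cux2 separated the sexes most, with 673 to 1954 counts in females (median 1375) and 8.85 to 19.3 in males (median 13.9), a log2 difference of -6.56 (SE 0.48, adjusted p = 1.03e-10). Trim24 (log2 -1.75) and Tox (-1.46), nuclear factors known as female-biased in liver, and Esr1, the estrogen receptor (-1.18), also lay without overlap above the males. The xenobiotic receptor gene Nr1i3 was higher in females (log2 -0.77, SE 0.20, adjusted p = 0.00529) with overlapping libraries. Cebpa, a hepatocyte identity factor, was at 17625 to 20070 in males and 10523 to 14309 in females (log2 0.69, SE 0.09, adjusted p = 6.54e-07).

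The male-biased repressor Bcl6 was not called. It ranged from 219 to 2110 in males and from 194 to 1350 in females (log2 0.75, SE 0.55, adjusted p = 0.342), with 1 male library at 2110 and 1 female library at 1350 far above the rest of their groups. Onecut1 likewise varied widely, 121 to 1220 in males and 62.8 to 621 in females (log2 1.31, adjusted p = 0.0849), and among the alternatives run was called only without female 4 (log2 1.86, adjusted p = 0.0188).

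A list of 27 known male-biased liver genes had 24 higher in males and 0 in females, with a median log2 difference of 3.90. Gna14, Cyp8b1 and Bcl6 did not pass. A list of 40 known female-biased genes had 39 higher in females and 0 in males, with a median of -3.83, or -3.55 when genes without a count in one sex were set at the bound that 3 counts per library allow. Only Lifr did not pass (log2 -0.08). The lists were collected from general knowledge of liver dimorphism, but with earlier results of these data known, so their counts are no independent check. Their members overlap the families described next.

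Cytochromes P450, the main oxidases of drugs and steroids, were divided between the sexes, as 20 of 84 tested members were higher in males and 24 in females. On the male side, Cyp2d9, a testosterone 16-alpha-hydroxylase, had 25437 to 42463 counts against 469 to 2016 in females (log2 5.03, SE 0.36, adjusted p = 5.15e-11). Cyp4a12a, a fatty acid omega-hydroxylase that makes 20-HETE, had 2867 to 7365 in males and 0.967 to 30.8 in females (log2 9.32, SE 0.98, adjusted p = 1.21e-07). Female 7 alone was at 30.8, and the difference was 10.53 without it. Cyp7b1, the oxysterol 7-alpha-hydroxylase, was at 5154 to 8861 and 489 to 867, respectively.

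Female-higher P450s lay mostly in the 2a, 2b, 2c, 3a and 4a subfamilies. Cyp2a4, a testosterone 15-alpha-hydroxylase, was at 9706 to 60245 in females, with female 6 far above the other libraries, and 17.5 to 158 in males. Cyp2b9 had 10455 to 15794 counts in females and 2.18 to 581 in males (log2 -6.62, SE 0.95, adjusted p = 1.5e-05). Cyp2c40 had 3670 to 6280 and 25.4 to 302 (log2 -6.15, SE 0.55, adjusted p = 5.79e-09). In both genes male 3 was the high male, and without it the differences were -7.89 and -7.34. The steroid 17-alpha-hydroxylase Cyp17a1 (log2 -3.56) and Cyp3a44 (-7.58) separated the sexes without overlap. Cyp3a16 was the most uneven, at 12.1 to 1278 in females and 3.29 to 16.6 in males (log2 -4.75, SE 0.83, adjusted p = 0.000181). Its difference was -3.66 without female 4, and both WT sexes were low, with 6.72 and 11.4 mean counts. Several of these genes have close paralogs, so single members are less certain than their subfamily where reads could fit more than 1 copy.

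Major urinary proteins, which carry pheromones into male urine, were higher in males in 19 of 20 tested members and higher in females in 0. The exception, Mup19, was at 1.43 on the log2 scale and was not called. Mup20, the male pheromone darcin, had 15132 to 68180 counts in males and 192 to 997 in females (log2 6.41, SE 0.67, adjusted p = 1.04e-07). Mup3 was at 194670 to 430170 in males and 40185 to 90278 in females (log2 2.23, SE 0.20). These genes are near-identical copies on chromosome 4, so the split of reads among them is uncertain.

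Sulfotransferases showed the opposite side, with 11 of 19 members higher in females and 1 in males. Sult3a1 had 3028 to 6772 counts in females and 0 to 1.84 in males. Sult2a5 was without a single count in the 7 males and at 325 ± 169 (SD, n = 7) in females, which is at least 108-fold higher when 3 counts per library are taken as the limit. The one male-higher member, Sult2a8, differed by 0.72 on the log2 scale. A1bg, which encodes a plasma glycoprotein, spread over 2739 to 29814 counts in females and 0 to 11.9 in males.

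In other families of hepatic metabolism the members were mixed, beside 13.1% of all autosomal genes higher in males and 10% in females. NAT8 genes were higher in males in 5 of 8 and in females in 0. Glutathione S-transferases were higher in males in 6 of 21 and in females in 0. Hydroxysteroid dehydrogenases divided 6 to 2 among 14, and UDP-glucuronosyltransferases 5 to 4 among 19. Organic ion transporters of the Slc22a family divided 5 to 4 among 17 (4 to 5 with library size alone), clade A serpins 7 to 5 among 20 and fatty acid elongases 2 to 2 among 7. Acyl-CoA thioesterases were higher in females in 6 of 10 and in males in 1. Organic anion transporters of the Slco family divided 1 to 1 among 10, 20% called against 23.1% of all genes. The organic anion transporter Slco1a1 was at 9069 to 15092 in males and 231 to 3065 in females (log2 3.90, SE 0.63, adjusted p = 6.70e-05), and without female 7 the difference was 4.80. Its relative Slco1a4 had the opposite bias, at 5526 to 9087 in females and 1596 to 3333 in males. Elovl3, a fatty acid elongase, had 2246 to 5716 counts in males and 39.7 to 155 in females. Serpina1e, an alpha-1-antitrypsin copy, was at 92266 to 165490 and 592 to 7312, with a log2 difference of 5.89 that became 6.71 without female 7. Selenbp2, a selenium-binding protein gene, was at 1863 to 8014 in males and 55.9 to 141 in females.

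**Figure D3:**
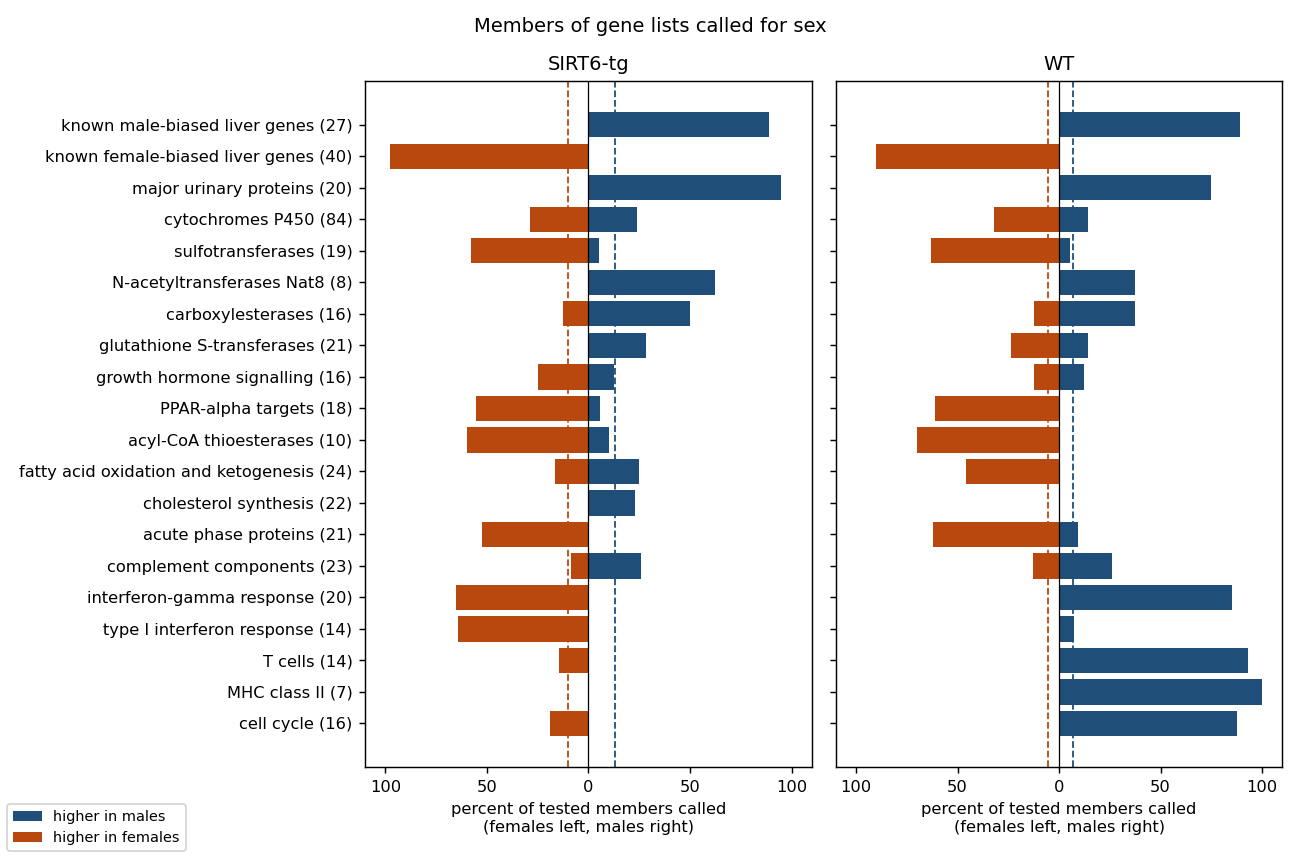
Percent of the tested members of 20 gene lists that were called higher in males (right) or in females (left), in SIRT6-tg and in WT; numbers in brackets are members tested and dashed lines the percent over all autosomal genes. Interferon-gamma response genes were called toward females in SIRT6-tg (13 of 20) and toward males in WT (17 of 20).

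To place these differences beside those of mice without the transgene, the same contrast was taken between male and female WT livers, which share no library with it. There, 2558 genes (12.3%) differed, 1403 higher in males (6.75%) and 1155 in females (5.56%). Male-higher genes were 54.8% of these calls, and 87.4% with library size alone. Genes called in both genotypes numbered 1302, 27.1% of the SIRT6-tg calls and 50.9% of the WT calls. Of these, 1143 had the same direction, and 357 of them differed at least 2-fold in both genotypes. The remaining 159 had opposite directions, 156 of them higher in females in SIRT6-tg and in males in WT.

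A call in one genotype and not in the other is not a difference between them, so the difference was tested directly. The sex difference differed between SIRT6-tg and WT for 1055 genes (5.08%), 253 more toward males in SIRT6-tg (1.22%) and 802 more toward females (3.86%). With 1 library left out, the count toward males ranged from 105 (without WT male 4) to 422 (without SIRT6-tg female 6). This contrast uses the same SIRT6-tg libraries as the main comparison. For 4174 of the 4807 SIRT6-tg calls it was not called. The genes called more toward males numbered 253, and 144, 112 and 25 under the other 3 scalings, while all 802 more toward females were called under all 4.

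**Figure D4:**
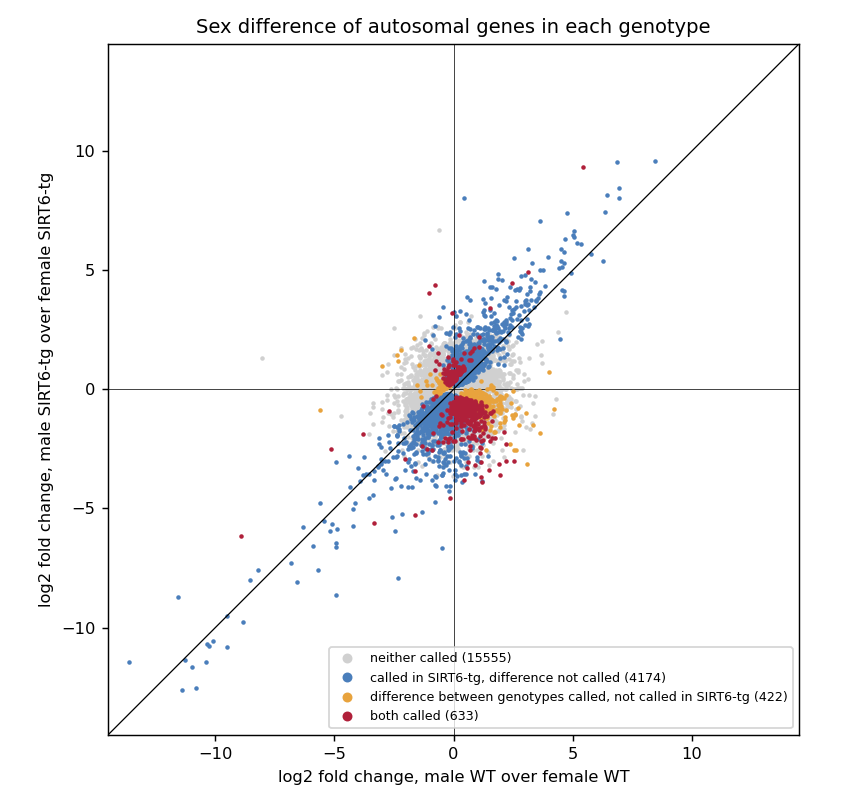
Log2 fold change of males over females for 20784 autosomal genes in WT (x axis) and SIRT6-tg (y axis), coloured by call; the diagonal marks equal differences. The 633 genes called both for sex in SIRT6-tg and for the difference between genotypes include a cloud to the right of the vertical axis and below 0, higher in WT males and in SIRT6-tg females.

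The lists of known sex-biased genes were counted in WT as well. There, 24 of the 27 male-biased genes were higher in males and 36 of the 40 female-biased genes in females, while Bcl6, Gna14 and Cyp8b1 and Cyp3a16, Cyp3a41b, Lifr and Ntrk2 were not called. The difference between genotypes was called for 2 and 1 of them. The 3 were Keg1, Cyp4a12a (log2 difference 9.32 in SIRT6-tg and 5.45 in WT, adjusted p of the difference = 0.0482) and Cyp2c40 (-6.15 and -8.91, adjusted p = 0.0364). In WT the mean count of Cyp4a12a was 3682 ± 944 (SD, n = 7) in males and 80.6 ± 171 in females, and that of Cyp2c40 was 8.03 ± 8.68 and 3753 ± 1535. Both calls of a difference between genotypes were near the threshold, and each was lost when any of several libraries was left out. Without WT female 3, at 465 counts of Cyp4a12a, its WT difference was 7.80 and the difference between genotypes 1.53 (edgeR adjusted p = 0.290), and the call held in 6 of 28 leave-one-out fits. For Cyp2c40 it held in 17 of 28, with an edgeR adjusted p of up to 0.0795 (without WT male 7). Without SIRT6-tg male 3 the difference between genotypes was 1.57 (edgeR adjusted p = 0.0691). Among the 20 genes named above, Col27a1 (2.21 against 1.08), Evc2 (-2.50 against -1.12), Aldh3b3 (-5.62 against -3.34) and Fam84b (-2.91 against -2.02) differed more in SIRT6-tg, with adjusted p of 0.00141, 0.000170, 0.00850 and 0.0465. The call for Fam84b held in 6 of 28 leave-one-out fits, with an edgeR adjusted p of up to 0.0845, and those for the other 3 genes in all 28.

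Carboxylesterases, which hydrolyse esters and lipids, supplied 2 of the 5 genes with the clearest shift toward males. Ces1e had 6401 to 9523 counts in male SIRT6-tg and 2710 to 4011 in female SIRT6-tg livers, while WT males and females were at 2811 ± 618 and 2813 ± 482 (SD, n = 7 each). The sex difference was 1.21 in SIRT6-tg and -0.00 in WT (adjusted p of the difference = 0.000165). Ces2a was at 8208 to 15692 and 4928 to 7402 in SIRT6-tg, and at 6014 ± 776 and 6037 ± 614 in WT (adjusted p = 0.000283). For both genes the 7 transgenic males lay above the 7 transgenic females, and the female SIRT6-tg ranges included the WT means. Of the 16 family members tested, 8 were higher in males and 2 in females in SIRT6-tg, against 6 and 2 in WT, and 3 had a called shift toward males (Ces1e, Ces2a and Ces1f) and 0 toward females. Sirt6 itself, Col27a1 and Il1rap, the interleukin-1 receptor accessory protein gene (0.41 in SIRT6-tg and -0.29 in WT), completed the set of 5.

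Interferon-gamma response genes had opposite sex differences in the 2 genotypes. In SIRT6-tg, 13 of 20 were higher in females and 0 in males, with a median log2 difference of -0.96. In WT, 17 were higher in males and 0 in females, with a median of 1.05. The difference between genotypes was called for 17, all more toward females in SIRT6-tg. The summed level of the list was 17031 to 20208 in male SIRT6-tg, 21021 to 89518 in female SIRT6-tg, 45090 to 84556 in male WT and 22865 to 44069 in female WT livers. Male SIRT6-tg livers were thus below every library of the other 3 groups.

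Igtp, an interferon-inducible GTPase, had 613 to 854 counts in male SIRT6-tg (median 735) and 1185 to 7775 in female SIRT6-tg livers (median 2144). WT males were at 4817 ± 1547 and WT females at 2260 ± 758 (SD, n = 7 each). Its sex difference was -1.94 in SIRT6-tg (SE 0.33, adjusted p = 1.00e-04) and 1.09 in WT (SE 0.32, adjusted p = 0.0224), and these differed by -3.03 (SE 0.46, adjusted p = 0.000250). The guanylate-binding proteins Gbp2 (118 to 184 in males, 321 to 1120 in females), Gbp3 (188 to 327 and 639 to 2061) and Gbp5 (23.9 to 44.1 and 38.4 to 175) had differences of -1.96, -2.07 and -1.49 in SIRT6-tg and of 0.87, 0.40 and 1.30 in WT. The GTPase Iigp1 followed (-1.12 and 0.83). Cxcl9, a chemokine that attracts T cells, was at 334 to 687 in males and 572 to 1925 in females (log2 -0.97, SE 0.30, adjusted p = 0.0192). Without female 1, the highest library, its adjusted p was 0.0645. Female 2 was the highest library for Igtp, Gbp3 and Iigp1, and without it 11 of the 20 list members were higher in females.

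Genes of the type I interferon response were higher in females in 9 of 14 and in males in 0 in SIRT6-tg, against 0 and 1 in WT, and 5 differences between genotypes were called. Ifi44 was at 58.8 to 102 in males and 196 to 599 in females (log2 -2.23, SE 0.24, adjusted p = 7.54e-08). Oasl2, an antiviral enzyme relative, was at 90.7 to 146 and 199 to 458 (log2 -1.23, SE 0.18). Rsad2 and Isg15 were not called, at -0.06 and -0.32.

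**Figure D5:**
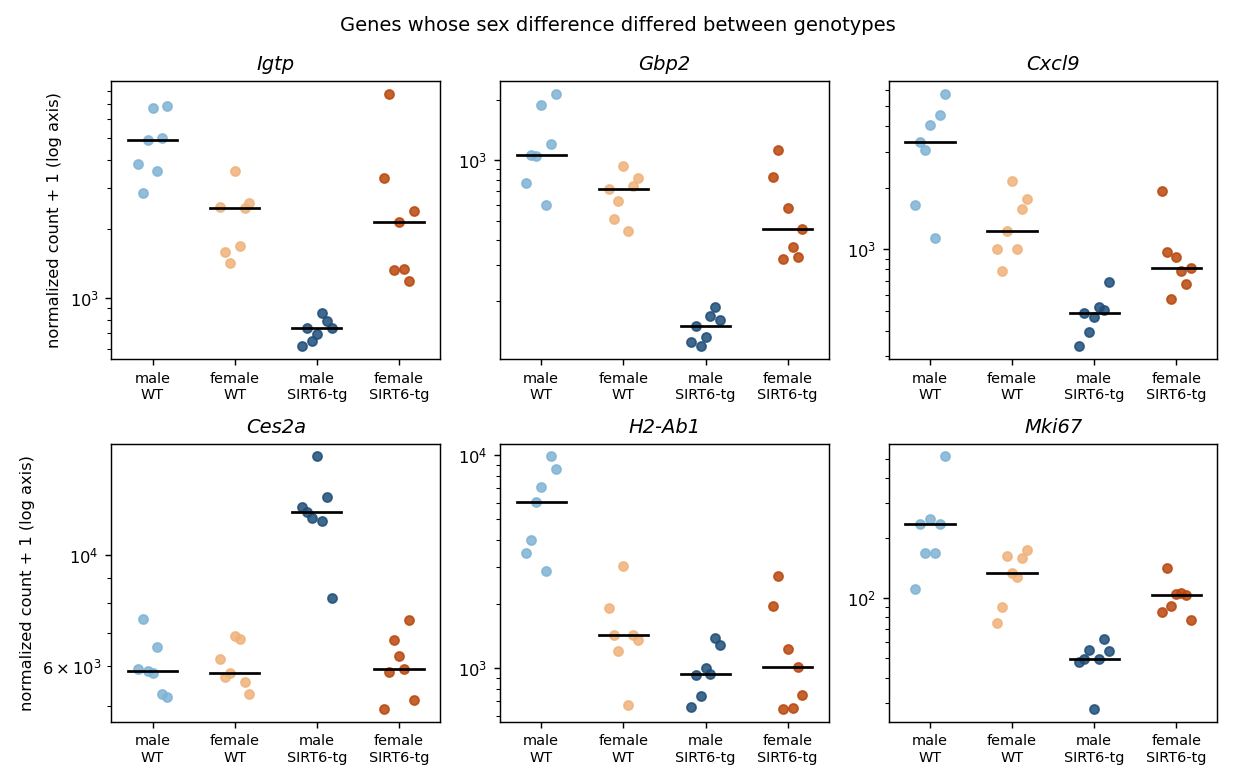
Normalized count plus 1 (log axis) of 6 genes with a called difference between the sex differences of the genotypes, in each of the 28 libraries; bars are group medians. For Igtp and Gbp2 the 7 male SIRT6-tg libraries lie below all others, whereas for Ces2a they lie above all female SIRT6-tg libraries.

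Markers of immune and other cells were counted beside these lists. Of the 7 MHC class II genes, 0 were called between SIRT6-tg sexes, whereas all 7 were higher in males in WT, and the difference was called for all 7. H2-Ab1 had 661 to 1393 counts in SIRT6-tg males and 643 to 2713 in SIRT6-tg females (log2 -0.37, adjusted p = 0.460), with overlapping ranges, and 5993 ± 2682 in WT males against 1579 ± 741 in WT females. Of 14 T cell markers, 2 (14.3%) were higher in females in SIRT6-tg, near the share of 10% over all genes. In WT, 13 were higher in males, and 9 differences between genotypes were called. Cd8a was at 6.19 to 27.4 in SIRT6-tg males, 17.7 to 42.1 in SIRT6-tg females, 185 ± 55.4 in WT males and 49.5 ± 21.2 in WT females (SD, n = 7 each). Its SIRT6-tg sex difference was not called (log2 -0.85, SE 0.33, edgeR adjusted p = 0.065). The summed T cell list spanned 484 to 1266 in male SIRT6-tg, 628 to 1099 in female SIRT6-tg, 901 to 2023 in male WT and 506 to 1409 in female WT livers.

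Natural killer markers were higher in females in 4 of 10 members in SIRT6-tg, with 8 called differences between genotypes. Their summed level was 104 to 226 in males and 199 to 513 in females. Macrophage and Kupffer cell markers were higher in females in 4 of 13, with 4 differences. Itgax was at 14.2 to 28.5 and 23.3 to 59.3 (log2 -1.01, SE 0.27, adjusted p = 0.00649), while the Kupffer cell marker Clec4f (-0.16) was not called. Their summed level was 12312 to 19877 in males and 12767 to 30083 in females. B cell and plasma cell markers were higher in females in 2 of 12, neutrophil markers in 1 of 9, cholangiocyte markers in 2 of 8 and sinusoidal endothelial markers in 1 of 10, and 0 of 8 erythroid markers were called. With 10% of all genes higher in females, the neutrophil and endothelial counts were at the share over all genes. The B cell and plasma cell count (16.7%) was near it. Ms4a4b, expressed in T cells, was at 15.6 to 34 in males and 39.8 to 71.6 in females (log2 -1.11, and 1.01 in WT). Gcnt1, a mucin-type glycan branching enzyme, was at 9.86 to 16.5 and 24.3 to 57.6 (log2 -1.55, and 0.89 in WT).

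Of 11 stellate cell markers, 6 (54.5%) were higher in females in SIRT6-tg, against 10% of all genes, and 4 were higher in males in WT. The fibrillar collagen Col3a1 was at 362 to 576 in SIRT6-tg males and 580 to 1057 in SIRT6-tg females, with 1980 ± 581 in WT males and 922 ± 337 in WT females (SD, n = 7 each). Col6a3 was at 87.3 to 117 and 136 to 218 (log2 -0.83, and 0.67 in WT). Cell cycle genes were higher in females in 3 of 16, where WT had 14 higher in males. The 18.8% called in SIRT6-tg compares with 10% of all autosomal genes higher in females and 23.1% called in either direction, and 13 were not called. Among the 3, the proliferation marker Mki67 was at 26.8 to 61.4 in males and 77.1 to 140 in females (log2 -1.05, SE 0.26, edgeR adjusted p = 0.00343). In bulk liver, fewer cells of a type and less RNA per cell cannot be told apart, and the part of cell composition in these differences was not tested.

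The transgenic and WT groups placed side by side show where these lists stood. The median log2 difference of SIRT6-tg from WT in males was -1.81 for interferon-gamma genes, -2.61 for MHC class II, -2.24 for T cell and -2.05 for cell cycle genes. In females the same medians were 0.00, -0.30, -0.47 and -0.38. These contrasts share their libraries with the sex comparisons. In all, 4329 genes differed between genotypes in males and 6 in females, where the unadjusted count was 1174, and Sirt6 was 6.68 higher in males and 3.39 higher in females on the log2 scale.

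Acute phase proteins, secreted by hepatocytes in inflammation, were higher in females in 11 of 21 in SIRT6-tg, and in 13 of 21 in WT, where 2 were higher in males. The difference between genotypes was called toward males in SIRT6-tg for 5 of the 21, the fibrinogen chains Fga, Fgb and Fgg, Hamp and Serpina3m, and toward females for 0. Orm2 was at 855 to 11638 in females and 164 to 424 in males (log2 -3.13, SE 0.54, adjusted p = 0.000130). The iron-binding protein gene Lcn2 was at 298 to 3896 and 78.6 to 218 (log2 -2.93, SE 0.59, adjusted p = 0.000821). Female 2 was the highest library for both, and without it the differences were -2.04 and -2.06. Complement components were mixed, with 6 of 23 higher in males and 2 in females, 34.8% called against 23.1% of all genes. The male-higher members included C6 and the terminal components C8a (log2 1.55), C8b (1.5) and C9 (1.32). The central component C3 was higher in females, at 202010 to 387760 against 132450 to 221470 (log2 -0.89, SE 0.16).

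Targets of PPAR-alpha, the fasting-activated lipid receptor, were higher in females in 10 of 18 and in males in 1, with a median log2 difference of -0.99, and 11 of 18 were higher in females in WT. Cyp4a14 was at 23017 to 72609 in females and 2343 to 10432 in males (log2 -2.91, SE 0.56, adjusted p = 0.000469), and Cyp4a10 at 13072 to 34242 and 3481 to 5892. The acyl-CoA thioesterase Acot3 was at 4020 to 12526 and 251 to 1774 (log2 -3.55, SE 0.60, adjusted p = 0.000111). Of the 18, 0 had a called difference between genotypes.

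Genes of fatty acid oxidation and ketogenesis were divided, 6 of 24 higher in males and 4 in females, 41.7% called against 23.1% of all genes. This split depended on the scaling, with 6 and 7 under median-of-ratios or upper-quartile factors and 6 and 8 with library size alone. In WT 0 were higher in males and 11 in females, and 1 difference between genotypes was called. The peroxisomal thiolase Acaa1b was at 19396 to 26721 in males and 9388 to 18908 in females (log2 0.64, SE 0.16, adjusted p = 0.00378). In fatty acid synthesis, Thrsp, a regulator of lipogenesis, was higher in males (4240 to 16730 against 1398 to 8137, log2 1.35), and 2 of 18 genes in all were higher in males and 1 in females, 16.7% called against 23.1% of all autosomal genes. That split was 1 and 3 with upper-quartile factors or library size alone. Cholesterol synthesis had 5 of 22 genes higher in males and 0 in females, and 3 and 1 with library size alone. The 22.7% called compares with 13.1% of all genes higher in males and 23.1% called in either direction. The synthase gene Fdps was among the 5 (406 to 910 against 87.1 to 440, log2 1.10, SE 0.26, adjusted p = 0.00290).

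Of 15 gluconeogenesis genes, 3 were higher in males and 1 in females, 26.7% called against 23.1% of all genes, and 1 and 1 with library size alone. Ppargc1a, a coactivator of fasting metabolism, was at 281 to 691 in females and 204 to 370 in males (log2 -0.82, SE 0.19, adjusted p = 0.00195), and G6pc (0.14) and Pck1 (0.07) were not called. De novo NAD synthesis, the tryptophan route to the substrate of sirtuins, had 4 of 11 genes higher in males and 0 in females. That is 36.4%, against 13.1% of all autosomal genes higher in males. In WT 1 of the 11 was higher in males and 0 in females, and 1 difference between genotypes was called. Tdo2, the entry enzyme of this route, was at 41772 to 65828 in males and 27569 to 41127 in females (log2 0.68, SE 0.12, adjusted p = 0.000145). Haao was at 13299 to 16548 and 8653 to 12813 (log2 0.51), with WT means of 9966 ± 1638 and 10477 ± 1118 (SD, n = 7 each). Its sex difference differed between genotypes with trimmed-mean scaling (edgeR adjusted p = 0.0118), and other scalings were not checked for this difference.

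In bile acid metabolism, 7 of 20 genes were higher in males and 5 in females. The split turned with the scaling, to 6 and 6 with median-of-ratios factors, 4 and 6 with upper-quartile factors and 4 and 7 with library size alone. Cyp7a1, the rate-limiting enzyme of the classical pathway, was at 2064 to 15473 in females and 1434 to 5016 in males, with overlapping ranges (log2 -1.05, SE 0.38, adjusted p = 0.0474). This call was lost when any of many single libraries was left out, with an adjusted p of 0.174 without female 7. Apoa1, the main protein of high-density lipoprotein, was at 220870 to 422530 in males and 108210 to 247010 in females (log2 0.83, SE 0.20, adjusted p = 0.00255).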

How the data were processed

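Liver RNA of 28 mice was sequenced by the authors as single reads from libraries of total RNA. The deposited values are raw counts per gene, which the authors made by aligning reads to mm10 with STAR 2.5.0a and counting uniquely mapped reads with HTSeq. Strand use is not given in the sources used here, so overlapping and antisense genes are uncertain, and unique counting makes near-identical copies uncertain. Groups came from the sample titles. All 28 libraries were fitted in 1 model of 4 groups with edgeR 4.0.16 (R 4.3.3) by the quasi-likelihood test with TMM scaling, on 21583 genes with a mean of 0.5 or more counts after division by DESeq2 size factors, and p-values were adjusted over these genes. Normalized counts are counts at the mean effective library size, and SE is the log2 fold change over the square root of F. Positions were matched for 49326 of 49585 features in GENCODE (GRCm38). On simulated data for male against female SIRT6-tg over 21583 genes, the fit recovered 70% of genes changed by 1 and 95% of genes changed by 2 on the log2 scale. No changed gene was drawn from those with the lowest mean expression, so recovery among them was not measured. A count of 0 allows up to 3 counts, and such limits cover counting error only. Same-numbered male and female SIRT6-tg libraries did not deviate together, so numbers were not treated as pairs. No libraries of a group agreed within sampling noise (chi-square per gene of 12.2 or more). Alternatives were other scalings and filters, DESeq2 1.42.0, a replicate block, fewer libraries and a Sirt6 covariate. Named genes were the 10 per direction with the lowest adjusted p among called protein-coding genes with non-overlapping libraries and an established symbol, the 5 per direction with the lowest adjusted p of the difference between genotypes among genes called in SIRT6-tg, Sirt6, and examples of lists and families (large called differences, members that missed the threshold, and defining members). The members and lists were chosen with earlier results of these data known. Values of some list members are not reported here.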

Additional observations from a re-analysis of the deposited data

Results flagged for a closer look

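Among 176 groups of 7 SIRT6-tg libraries tested for a library far from the rest (88 named genes in each sex), 25 had one (14.2%). The limit used flags about 1 in 20 groups of independent values with a normal spread. Counts of related genes in the same livers are not such values, so this share was not compared with chance. The 25 gathered in a few livers. Male 3 was the highest male for the female-biased genes Slc22a26 (85.4 normalized counts), Prlr (3946), Cyp2b9 (581) and Cyp2c40 (302), and for C3 (221470). Male 1 was the highest for Bcl6 (2110), Cyp7b1 (8861) and Selenbp2 (8014) and the lowest for Cyp17a1 (61.2). Male 4 was the lowest for Mki67 (26.8), and male 7 the highest for Fdps (910).

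Female 7 was the highest female for the male-biased genes Nat8 (24.7), Cyp4a12a (30.8), Slco1a1 (3065) and Serpina1e (7312), and for Il1rap (5622). Female 2 was the highest for the interferon-inducible genes Gbp3 (2061), Igtp (7775) and Iigp1 (49293) and for the acute phase genes Lcn2 (3896) and Orm2 (11638). Cxcl9 was highest in female 1 (1925), Bcl6 in female 5 (1350), Onecut1 in female 4 (621) and Cyp2a4 in female 6 (60245).

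The sex difference of 28 named genes differed between SIRT6-tg and WT by the test of that difference. More toward males in SIRT6-tg, on the log2 scale, were Sirt6 (3.29), Cyp4a12a (3.87), Cyp2c40 (2.76), Ces1e (1.21), Col27a1 (1.12), Ces2a (1.01), Il1rap (0.70), Haao (0.58) and Cebpa (0.47). More toward females were the interferon-inducible genes Igtp (-3.03), Gbp2 (-2.83), Gbp5 (-2.79), Gbp3 (-2.47), Cxcl9 (-2.28), Iigp1 (-1.95), Ifi44 (-1.58) and Oasl2 (-1.36). So were the immune cell genes Cd8a (-2.74), Itgax (-2.56), H2-Ab1 (-2.30) and Ms4a4b (-2.12), with Gcnt1 (-2.43), Mki67 (-1.92), Col3a1 (-1.92), Col6a3 (-1.51), Aldh3b3 (-2.28), Evc2 (-1.38) and Fam84b (-0.88). With 1 library left out, the call was lost in some fits for Cyp4a12a (kept in 6 of 28), Fam84b (6), Cyp2c40 (17) and Cebpa (27). It held in all 28 for the other 24 genes. These fits all used TMM scaling, and these single differences were not checked under other scalings. Of all 253 genes called more toward males, 25 were called under all 4 scalings.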

How the results depend on the processing

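The 4807 genes called between male and female SIRT6-tg livers were 3963 without a filter on low counts, 4934 with edgeR's own filter and 5393 with DESeq2. The WT comparison (2558) and the difference between genotypes (1055) moved past 1.5 times with library size alone, to 4087 and 1803. With the log2 Sirt6 level as covariate in the 14 SIRT6-tg libraries, 69 genes were called for sex, and 13 of the members of lists and families in place of 281. Under that covariate the log2 difference changed sign, with no call, for Il1rap (-0.27), Esr1 (0.62), Igf1 (0.34), Cyp3a16 (6.05), Fdps (-0.54), Acaa1b (-0.72), Ppargc1a (0.90), C3 (0.20) and Apoa1 (-0.90). The Sirt6 levels of the sexes do not overlap, so the 2 cannot be told apart. Leaving out 1 library at a time gave 3697 (without female SIRT6-tg 4) to 5408 (without female SIRT6-tg 6) calls in SIRT6-tg, 1974 to 2866 in WT, 774 to 1320 for the difference, 261 to 293 listed members and a Sirt6 difference of 3.11 to 3.39.

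Leaving out male 7 and females 1 and 6, chosen after seeing the data, gave 5356 calls in SIRT6-tg and 1013 for the difference. Same-numbered libraries had correlations of -0.40 to 0.41, above 0.1 for 3 of 7 pairs, so the numbers do not pair the samples. With the number as a replicate block the counts were 4644, 2370 and 959, respectively. Depth of 18758863 to 35393069 counts limits genes near the filter, where 3 counts decide a value.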
